A study of Mus musculus with 8 samples.

Results

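Ckb and Apoe were chosen on the number of reads they gave after 48 h of MHY1485 (MHY), where both were higher than in the DMSO controls. They are 2 of the 13120 genes with at least 1 read and 2 of the 4115 genes with enough reads for a test. The rows of the 2 genes were taken by gene name among mRNA alignments whose tail estimate carried the quality tag PASS, with 1 row kept per read and transcript, which left 463 reads of Ckb and 514 of Apoe. Because their 48 h reads against DMSO made the choice, those reads are described without a test. Their reads at 24 h, their poly(A) tails, their transcripts and the positions at which reads began played no part in it and were tested.

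Poly(A) tails and read numbers came from nanopore direct RNA sequencing, in which a native polyadenylated mRNA passes through a pore from its 3′ end, so that 1 read is 1 molecule with its tail. The cells were P19 mouse embryonal carcinoma cells, a single pluripotent line kept undifferentiated. They received either MHY, a small molecule used to activate the mTOR kinase, at 10 µM in DMSO, or the same amount of DMSO, for 24 h or 48 h, and medium and compound were renewed every 24 h. This made 4 groups (DMSO 24 h, MHY 24 h, DMSO 48 h and MHY 48 h) of 2 biological replicates. Libraries are called here by the numbers the table gives them, which are names and not hours: 21 and 23 at 24 h, 24 and 25 at 48 h. The 24 h libraries were sequenced together in 3 runs and the 48 h libraries in 2 other runs, so time and run cannot be told apart.

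Creatine kinase B, the product of Ckb, is the cytosolic brain-type enzyme that moves phosphate between creatine phosphate and ADP, and so buffers ATP where it is used quickly. It is abundant in brain and is also made by many embryonic and epithelial cells. Apolipoprotein E, the product of Apoe, is a secreted protein that coats lipoprotein particles and carries cholesterol to cells through surface receptors that take it up. It is made mainly by liver, macrophages and astrocytes, and its transcription in macrophages is raised by the sterol-sensing LXR receptors. The mTOR pathway is best known for driving translation and holding back autophagy.

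Both genes lie on minus strands of mm10. Ckb occupies chr12:111669361-111672338 and Apoe chr7:19696109-19699188, by their longest-reaching transcripts with reads. The 30 bases at which most of their reads ended are shown first, since this is the sequence to which the measured tails were attached. They lie in the last exon, in the 3′ UTR, and run 5′ to 3′ along the transcript (GENCODE vM21, the same assembly). Capitals mark the polyadenylation signal AATAAA.

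Ckb, chr12:111669361-111669390, minus strand: tgaaAATAAActagggtttggcctgcccta

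Apoe, chr7:19696270-19696299, minus strand: cccttgcttAATAAAgattctccgagcaca

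The signal ended 20 bases before the commonest last aligned base in Ckb and 15 bases before it in Apoe. In Ckb that base was the annotated 3′ end, and 98.6% of the 431 reads on the main transcript ended within 30 nt of it. In Apoe it lay 161 bases short of the annotated end of the main transcript, and 99.3% of 458 reads ended within 30 nt of it. Each gene thus gave tails from 1 end site almost throughout.

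Because the reads of both genes were raised together at 48 h, the 100 bases before the annotated start of each main transcript are also given, from RefSeq (GRCm38.p6). Capitals mark TATAAA, the TATA box letters, which were searched on both strands.

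Ckb, chr12:111672339-111672438, minus strand: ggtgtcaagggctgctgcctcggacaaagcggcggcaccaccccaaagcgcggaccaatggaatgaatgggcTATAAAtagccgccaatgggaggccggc

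Apoe, chr7:19699189-19699288, minus strand: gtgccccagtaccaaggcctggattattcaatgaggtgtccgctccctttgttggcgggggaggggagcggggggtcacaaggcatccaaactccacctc

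TATAAA began 28 bases before the annotated start of Ckb. These letters were not in the Apoe window, and 5.56% of the 32851 promoters listed held them in the same stretch. The commonest first aligned base lay 53 bases downstream of the annotated start in Ckb and 147 bases downstream in Apoe. The windows shown are therefore not the stretches directly before the sites where most reads began, which were not searched. RefSeq lists 2 further Apoe starts, which are not shown.

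Depth was modest. The libraries held 178359 to 316531 reads of nuclear-encoded mRNA after filtering, of which 25 to 113 were of Ckb and 34 to 138 of Apoe. Intervals below on reads, their shares or their ratio are 95% intervals on counting error only. Intervals given beside an SE are 95% intervals of the limma fit. Replicates differed by more than counting error, with a chi-square per degree of freedom of 1.19 to 1.56 between the 2 libraries of a group. The pluripotency genes fixed as markers of these cells summed to 365.0 to 421 reads per 100000 in every library, led by Pou5f1, and 11 of 12 had reads (Zfp42 had none).

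Ckb was lowest in DMSO 48 h and highest in MHY 48 h. At 48 h the DMSO libraries gave 25 reads in library 24 and 50 in library 25, or 11.7 (interval 7.57 to 17.3) and 15.8 (11.7 to 20.8) reads per 100000. The MHY libraries of 48 h gave 113 reads in library 24 and 73 in library 25, or 36.3 (29.9 to 43.6) and 34.1 (26.7 to 42.9) per 100000. The MHY libraries were close to each other and well clear of the DMSO libraries.

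The group means of Ckb at 48 h were 13.7 ± 2.90 (SD, n = 2) with DMSO and 35.2 ± 1.54 (SD, n = 2) with MHY per 100000, a ratio of 2.56. After scaling by size factors, the fitted log2 difference was 1.22 (SE 0.22). This value chose the gene and is given without a test. By the size of this difference Ckb was the 49th from the top of 4115 genes, and 1.17% of genes were above it.

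Apoe showed a similar pattern with a flatter control. Its DMSO libraries at 48 h gave 37 and 57 reads (libraries 24 and 25), which were 17.3 (12.2 to 23.9) and 18.0 (13.6 to 23.3) per 100000. Its MHY libraries gave 138 and 75 reads, which were 44.3 (37.2 to 52.3) and 35.0 (27.6 to 43.9) per 100000. The DMSO values were nearly equal, and the MHY values lay above them and further apart.

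For Apoe the means at 48 h were 17.7 ± 0.488 (SD, n = 2) and 39.7 ± 6.55 (SD, n = 2) per 100000, a ratio of 2.25, and the fitted log2 difference was 1.05 (SE 0.21), again without a test. It was the 85th of 4115 genes, with 2.04% of genes above it.

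Over all genes tested, 17 were called higher and 54 lower at 48 h at an adjusted p under 0.05 (limma voom with Benjamini-Hochberg adjustment), which is 1.73% in either direction and 0.413% for higher. The log2 differences of the 17 ran from 0.53 (Ftl1) to 2.19 (Tagln). At 48 h the MHY libraries exceeded the DMSO libraries without overlap in 18.6% of genes tested. The rule used this contrast, so nothing is read from these counts about Ckb and Apoe. Scaling by total reads gave 32 higher and 28 lower, and scaling by the upper quartile 14 and 146. The median log2 difference of all genes was -0.02 with the size factors, 0.10 with total reads and -0.11 with the upper quartile. Ckb stood at 1.33 and 1.12 and Apoe at 1.16 and 0.95 under these scalings.

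**Figure D1:**
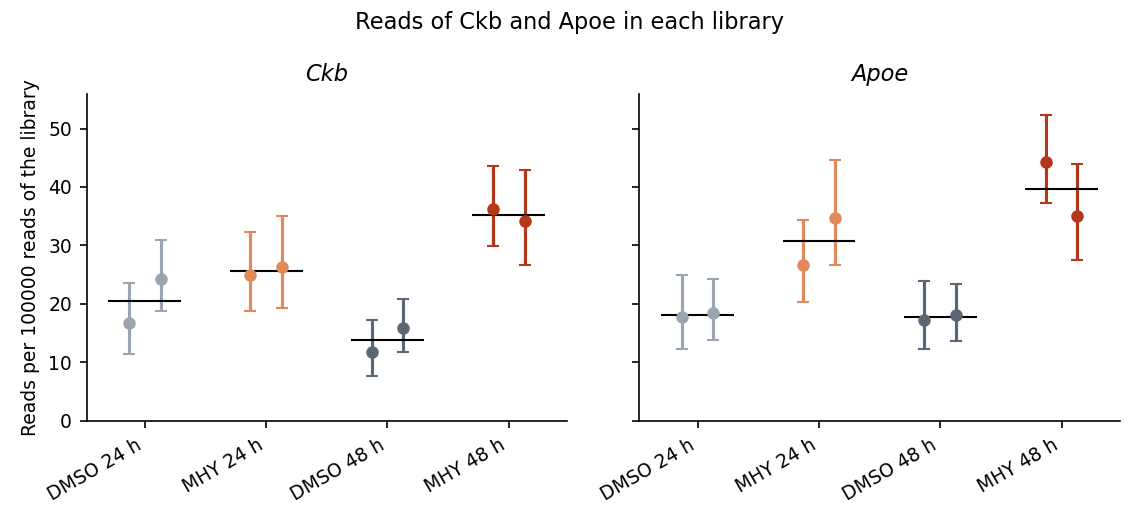
Reads per 100000 reads of the library for Ckb (left) and Apoe (right) in the 4 groups; each point is 1 library with its 95% counting interval and each horizontal line a group mean. The MHY 48 h libraries sit at 34.1 and 36.3 for Ckb and at 35.0 and 44.3 for Apoe, above all DMSO libraries.

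The 2 runs of 48 h sequenced the same 4 libraries, and together they hold the reads that chose the genes, so their values are a description. In the first run of that time the ratio of MHY to DMSO means was 2.72 for Ckb and 2.08 for Apoe, and in the second run it was 2.46 and 2.39. Within each of the 2 runs, both MHY libraries were above both DMSO libraries for both genes. As the libraries are the same, this is no replication, and its share over all genes was not counted. The smallest of these values was 8 reads, for Ckb in DMSO library 24 in the first run.

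The share of alignments with the tag PASS was lower for Ckb in DMSO 48 h than elsewhere. It was 75 of 98 alignments there (76.5%), against 89.0% in MHY 48 h and 88.4% and 89.6% in the DMSO and MHY groups of 24 h. For Apoe it was 87.0% in DMSO 48 h and 89.1% in MHY 48 h. With every alignment counted whatever its tag, a setting chosen after these shares were seen, the 48 h ratio was 2.21 for Ckb and 2.19 for Apoe.

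At 24 h the reads of Apoe were higher in both MHY libraries, and the difference did not pass the test. Apoe gave 34 and 51 reads with DMSO (libraries 21 and 23) and 60 and 62 with MHY. Per 100000 these were 17.8 and 18.5 against 26.7 and 34.8, so the groups did not overlap. The means were 18.1 ± 0.488 (SD, n = 2) and 30.7 ± 5.72 (SD, n = 2), a ratio of 1.69.

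The 24 h difference of Apoe on the log2 scale was 0.69 (SE 0.23, interval 0.24 to 1.13). Its limma voom p was 0.00235 before adjustment and 0.645 after adjustment over 4115 genes, so it was not called. The exact two-sided permutation test of the 4 libraries gave 0.33, the smallest p that 2 against 2 allows. Of all genes tested, 6.2% had a larger difference at 24 h.

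Ckb at 24 h gave 32 and 67 reads with DMSO and 56 and 47 with MHY, in libraries 21 and 23. Per 100000 these were 16.8 and 24.3 against 24.9 and 26.4. The lower MHY library was just above the higher DMSO library, by less than their counting intervals. The log2 difference was 0.27 (SE 0.23, interval -0.18 to 0.71, limma voom adjusted p = 0.987, exact permutation p = 0.33).

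At 24 h only Mt1, a metallothionein, and Ftl1, the ferritin light chain, were called among 4115 genes, which is 0.0486% (184 had an unadjusted p under 0.05). By reads scaled with the size factors, the MHY libraries were above the DMSO libraries without overlap in 15.7% of genes. Apoe was among these. Ckb was not, with 40.1 and 57.4 scaled reads with DMSO and 57.0 and 62.4 with MHY, since its groups were apart only per 100000 reads. Within the 3 runs of 24 h the ratio of means was 1.41 to 1.93 for Apoe, and it was 1.36, 1.43 and 0.888 for Ckb, which was lower with MHY in the third run.

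Set in order, the levels of Ckb per 100000 were 13.7 (DMSO 48 h), 20.5 ± 5.33 (DMSO 24 h), 25.6 ± 1.03 (MHY 24 h) and 35.2 (MHY 48 h). DMSO 24 h and MHY 24 h, neighbours in this order, did not differ beyond the spread of the DMSO libraries. The order for Apoe was DMSO 48 h and DMSO 24 h (17.7 and 18.1), then MHY 24 h (30.7) and MHY 48 h (39.7). The DMSO groups of Apoe did not differ beyond their spread. The higher MHY 24 h library of Apoe (34.8) lay just under the lower MHY 48 h library (35.0), by less than their counting intervals. Groups of different times came from different runs.

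**Figure D2:**
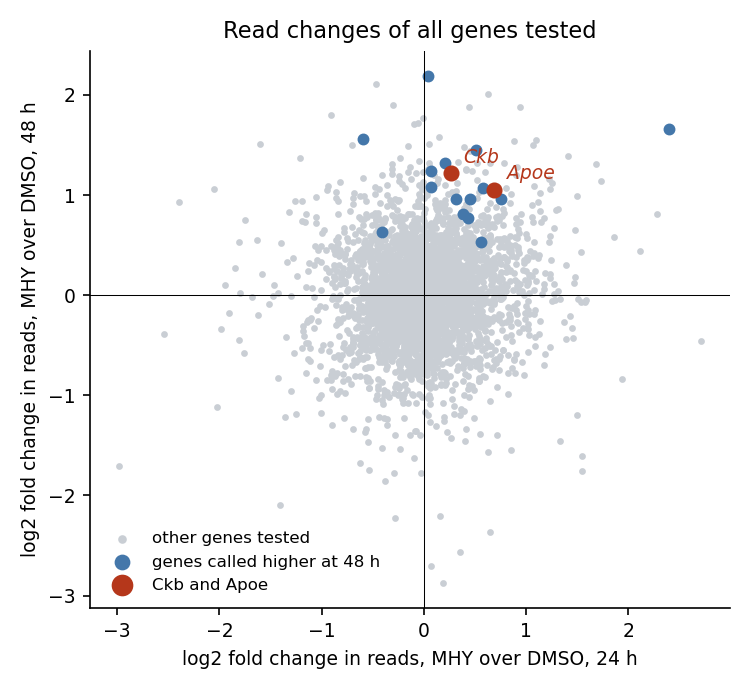
Fitted log2 differences in reads (MHY over DMSO) at 24 h (x axis) and 48 h (y axis) for 4115 genes, with Ckb and Apoe in red and genes called higher at 48 h, these 2 left aside, in blue. Ckb lies at 0.27 and 1.22, and Apoe at 0.69 and 1.05.

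Nearly all reads of each gene lay on 1 transcript. Ckb-201, the protein-coding transcript of 8 exons and 1472 nt, took 431 of 463 reads (93.1%). The other 32 were assigned to Ckb-204, a 2839-nt transcript with a retained intron. Of these, 1 read covered 10 or more of the 1423 bases that Ckb-204 has and Ckb-201 lacks. The other 31 lay on sequence that both transcripts share, and their median mapping quality was 0, so they could not be told from reads of Ckb-201.

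Apoe-206, a protein-coding transcript of 4 exons and 1408 nt, took 458 of 514 reads (89.1%). Apoe-209 took 26 reads, Apoe-205 took 19 and Apoe-201 took 11. These differ from Apoe-206 at the 5′ end, and their annotated 3′ end is at 19696272, where that of Apoe-206 is at 19696109. The commonest last aligned base of the Apoe-206 reads, 19696270, lay close to the end of these 3 transcripts. All 3 had a median mapping quality of 0, and 1 read of the 3 transcripts covered 10 or more bases that Apoe-206 lacks. Reads of mapping quality 10 or more made up 67.0% of the Apoe-206 reads and 93.5% of the Ckb-201 reads.

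The share of reads on the main transcript did not pass the test. For Ckb-201 it was 93.0% ± 4.24 (SD, n = 2) with DMSO and 92.8% ± 5.25 (SD, n = 2) with MHY at 48 h, and 92.3% ± 6.73 and 92.0% ± 3.73 at 24 h. For Apoe-206 it was 87.2% ± 6.67 and 90.7% ± 3.87 at 48 h, and 82.8% ± 4.85 and 91.0% ± 0.95 at 24 h. The limma adjusted p of the log2 odds was 0.973 and 0.961 at 48 h for Ckb-201 and Apoe-206, and 0.985 for each at 24 h.

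Apoe-209 had the lowest p of the transcripts of both genes. By the table's assignment it took 8.84% ± 4.86 (SD, n = 2) of Apoe reads with DMSO and 2.78% ± 0.164 (SD, n = 2) with MHY at 48 h, from 2 and 7 reads against 4 and 2. The log2 odds difference was -1.72 (SE 0.43), with a limma p of 0.00559 before and 0.818 after adjustment, so it was not called. Of 2786 transcripts tested, 0% were called at 24 h and 0% at 48 h, where 131 and 122 had an unadjusted p under 0.05.

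The reads of each gene began at a sharp site. On Ckb-201 the commonest first aligned base was base 54, at 111672285, and 308 of 431 reads (71.5%, Wilson interval 67.0% to 75.5%) began within 30 nt of it. On Apoe-206 it was base 148, at 19699041, and 333 of 458 reads (72.7%, interval 68.5% to 76.6%) began within 30 nt of it. Both sites were downstream of the annotated start and in the first exon. A further 49 Apoe reads (10.7%) began more than 30 nt before the site, and 1 Ckb read did. The rest began later along the transcript.

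At 48 h a larger share of reads began at this site with MHY than with DMSO in both genes. For Ckb the share was 66.7% and 60% with DMSO (libraries 24 and 25) and 74.3% and 72.3% with MHY. For Apoe it was 61.8% and 57.4% with DMSO and 79.1% and 71.2% with MHY. The groups did not overlap in either gene. The differences were 9.98 and 15.5 percentage points, with an exact two-sided permutation p of 0.33 for each, the smallest possible.

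Over the 1657 genes with 10 or more reads on their main transcript in each library, both MHY libraries were above both DMSO libraries in 14.2% at 48 h and in 14% at 24 h. The median difference over these genes was -0.315 points at 48 h, and 7.85% of genes had a larger one than Ckb and 2.23% a larger one than Apoe. The median share over genes was 64.0% and 64.9% in the DMSO libraries of 48 h and 62.2% and 65.5% in the MHY libraries, so over all genes the groups overlapped. At 24 h the shares overlapped, with 67.7% to 85.7% with DMSO and 71.4% to 73.6% with MHY for Ckb, and 70.5% to 74.1% and 72.7% to 80.4% for Apoe.

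This window was chosen after the starts had been seen. The planned measure, the share of reads beginning in the first 100 nt, missed the Apoe site. It was 63.3% ± 4.71 with DMSO and 74.1% ± 0.329 with MHY for Ckb at 48 h (exact permutation p = 0.33, n = 2 each), and 5.73% ± 3.94 and 7.22% ± 6.93 for Apoe (exact permutation p = 1). At 24 h it was 79.3% ± 14.2 and 72.5% ± 1.52 for Ckb (exact permutation p = 1), and 10.1% ± 1.43 and 2.71% ± 1.31 for Apoe (exact permutation p = 0.33).

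**Figure D3:**
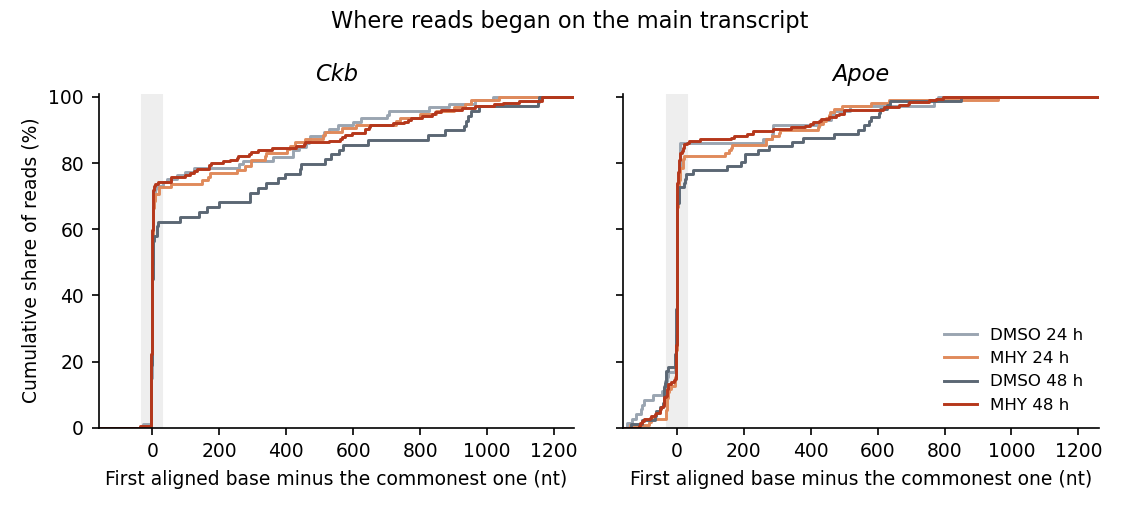
Cumulative share of reads (y axis, %) by the first aligned base on the main transcript, as the distance in nt from the commonest first base (x axis), with the 2 libraries of a group pooled and a grey band at 30 nt on each side. The DMSO 48 h curve of each gene leaves the band lowest, with mean shares inside the band of 63.3% for Ckb and 59.6% for Apoe.

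Counting only the reads that began at the site, Ckb had 8.01 ± 0.736 reads per 100000 with DMSO and 24.0 ± 2.86 with MHY at 48 h, a ratio of 2.99. Apoe had 9.18 ± 0.918 and 27.3 ± 7.63, a ratio of 2.98. Reads beginning elsewhere on the main transcript were also more numerous with MHY, with ratios of 1.84 for Ckb and 1.41 for Apoe. These ratios contain the 48 h reads that chose the genes and were not tested.

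The tails of both genes were of ordinary length for these cells. Over all libraries the median tail was 98.1 nt for Ckb (quartiles 64.7 and 138.6 nt) and 95.5 nt for Apoe (quartiles 64.2 and 137.2 nt). The median of the gene medians was 99.4 nt over 1949 genes, of which 44.6% had a shorter median than Ckb and 34.6% a shorter one than Apoe. Single reads had tails of 18.8 to 367 nt in Ckb and 17.1 to 406.9 nt in Apoe.

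Tails shorter than 30 nt were rare in both genes. There were 14 such reads of Ckb (3.02%) and 15 of Apoe (2.92%). Tails of 30 to 90 nt made up 41.9% and 43.4%, and tails longer than 90 nt 55.1% and 53.7%.

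The median tail of Ckb in the 48 h libraries 24 and 25 was 85.8 and 107.5 nt with DMSO and 95.3 and 84.6 nt with MHY. The groups overlapped, and the DMSO libraries were further apart than the group means. The fitted difference was -9.17 nt (SE 9.88, interval -29.1 to 10.8, limma adjusted p = 0.913). At 24 h the medians were 89.4 and 101.8 nt with DMSO and 98.0 and 106.3 nt with MHY (fitted difference 4.0 nt, SE 10.2, limma adjusted p = 0.995).

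The median tail of Apoe at 48 h was 92.3 and 91.0 nt with DMSO and 105.2 and 94.8 nt with MHY. Both MHY libraries were above both DMSO libraries, but the share of genes whose median tails separated in this way was not counted. The fitted difference of 9.99 nt (SE 9.32, interval -8.83 to 28.8, limma adjusted p = 0.879) did not pass the test. At 24 h the medians were 88.7 and 85.2 nt with DMSO and 87.0 and 118.7 nt with MHY, so that library 23 alone was higher, and the fitted difference was 16.5 nt (SE 10.6, interval -4.98 to 38.0, limma adjusted p = 0.995).

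Over the 1949 genes tested, 17 had a shorter median tail with MHY at 48 h (0.872%) and 0% were called at 24 h. The median difference over genes was -3.01 nt at 48 h. The intervals of Ckb and Apoe hold this value as well as 0.

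Few tails under 30 nt were counted in any library. Ckb had 1 and 0 such reads with DMSO and 6 and 3 with MHY at 48 h, which are 4% and 0% against 5.31% and 4.11% of its reads. Apoe had 0 and 5 with DMSO and 3 and 3 with MHY, or 0% and 8.77% against 2.17% and 4%. The log2 odds differences were 1.62 (SE 1.01, limma adjusted p = 0.633) for Ckb and -0.53 (SE 0.86, limma adjusted p = 0.870) for Apoe. At 24 h each library had 0 to 2 such reads of either gene, and the differences were -0.48 (SE 1.04) and 0.54 (SE 0.98), with an adjusted p of 0.996 by limma for each.

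The share of tails of 30 to 90 nt was also within the spread of the libraries. For Ckb it was 45% ± 9.90 with DMSO and 44.3% ± 5.12 with MHY at 48 h, and 44.4% ± 7.92 and 37.0% ± 13.3 at 24 h. For Apoe it was 44.5% ± 5.87 and 40.9% ± 2.50 at 48 h, and 52.0% ± 1.39 and 42.8% ± 12.6 at 24 h (SD, n = 2). The log2 odds differences were 0.052 (SE 0.44) and -0.19 (SE 0.39) at 48 h and -0.29 (SE 0.46) and -0.53 (SE 0.45) at 24 h, for Ckb and Apoe, with limma adjusted p from 0.979 to 0.996. Calls over the 1949 genes were 0.359% for tails under 30 nt and 0.257% for tails of 30 to 90 nt at 48 h, and 0% for each at 24 h. The change in effect from 24 h to 48 h was tested for these tail measures, and its limma adjusted p was at least 0.808 in both genes.

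**Figure D4:**
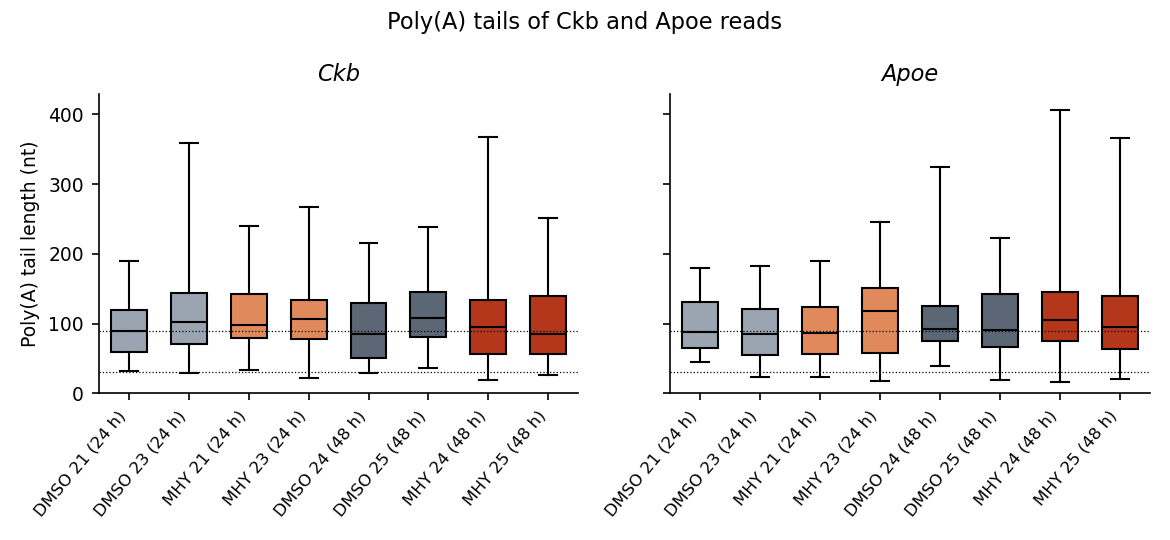
Poly(A) tail length (nt) of the reads of Ckb (left) and Apoe (right) by library; boxes span the quartiles with the median as a line, whiskers reach the shortest and longest tail, and dotted lines mark 30 and 90 nt. The library medians lie between 84.6 and 107.5 nt for Ckb and between 85.2 and 118.7 nt for Apoe.

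Reads that began at the site and reads that began later had similar tails. In Ckb the pooled medians were 100.9 nt (308 reads) and 94.0 nt (122 reads), and in Apoe 96.0 nt (333 reads) and 86.7 nt (76 reads). The reads from the site had the longer median in 4 of 8 libraries for Ckb and in 3 of 8 for Apoe.

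None of the tested genes of the phosphagen system was called. The list held 11 creatine and adenylate kinase genes, of which 9 had reads and 3 had enough for a test, and 0 of the 3 were called at 24 h or 48 h. The muscle creatine kinases Ckm and Ckmt2 had 0 reads, and the mitochondrial Ckmt1 had 6. Gatm and Gamt, the enzymes of creatine synthesis, had 6 and 10 reads over the 8 libraries, and the creatine transporter Slc6a8 had 16. The adenylate kinases were the abundant members, with 388 reads of Ak6 and 69 of Ak4. The log2 difference of Ak6 at 48 h was -0.05 (SE 0.22) and the median of the 3 genes was -0.05, beside -0.02 over all genes.

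Most of Apoe's partners had few reads. Of 29 apolipoproteins, receptors, transporters and sterol sensors, 22 had reads, 3 could be tested and none was called at either time. No read was seen of Apoa1, Apob, Apoc2 or Apoc3. The receptors Lrp2 and Lrp1 had 47 and 20 reads. Abca1, a sterol-responsive cholesterol exporter, had 3 reads and Abcg1 had 0. Lrpap1, the chaperone of Apoe receptors, had 176 reads and a log2 difference of -0.05 (SE 0.28) at 48 h. The mitochondrial Apoo and Apool, related by name, had 115 and 90 reads. The median of the 3 tested genes was -0.01 at 48 h.

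Genes listed as neighbours of Apoe and of Ckb on their chromosomes were compared next. Their distances were not measured, and the lists do not hold every gene of the region. Of 6 neighbours of Apoe, 3 were tested and none called. Clptm1 had the largest difference at 48 h, with 15 and 27 reads with DMSO and 41 and 38 with MHY (log2 0.79, SE 0.29, limma voom adjusted p = 0.153). Tomm40, a subunit of the mitochondrial import pore, had a log2 difference of -0.30 (SE 0.22), and Apoc1 had 7 reads in all. Of 6 neighbours of Ckb, 3 were tested and none called. Eif5, a translation initiation factor, had a log2 difference of 0.04 (SE 0.23), Cinp one of 0.13 (SE 0.33) and Mark3, with 83 reads in all, one of 0.81 (SE 0.50, limma voom adjusted p = 0.523). The 6 genes summed to 29.1 to 36.5 reads per 100000 with DMSO and 36.9 to 46.2 with MHY at 48 h. The 6 neighbours of Apoe summed to 37.0 to 42.6 and 44.3 to 54.7. At 24 h the neighbours of Apoe summed to 41.69 to 43.97 with DMSO and 36.44 to 36.9 with MHY. Their sum was thus lower with MHY at 24 h, while Apoe was higher. The sum for the neighbours of Ckb was higher with MHY at 24 h also. With scaling by total reads, as in these sums, the median log2 difference of all genes was 0.10 at 48 h. The sums were not tested or compared with those of other genes.

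Markers of macrophages and endoderm were at or near 0. Of 5 macrophage genes, 3 had reads and their sum was 0.632 to 1.87 reads per 100000 with DMSO and 1.28 to 1.87 with MHY at 48 h, and Adgre1 and Aif1 were at 0. Of 9 endoderm genes, 4 had reads, their sum was at most 0.934 in any 48 h library, and Afp, Ttr, Sox17, Sox7 and Apoa1 were at 0. Of 7 astrocyte genes, 3 had reads, and Gfap, Slc1a2, Aqp4 and S100b were at 0. The astrocyte sum was 10.4 to 12.2 with DMSO and 3.85 to 7.01 with MHY at 48 h, lower with MHY while Apoe was higher, and its part in the Apoe values was not tested. The lower sum came from Aldoc, since the means of the others with reads were 1.41 with DMSO and 2.60 with MHY for Slc1a3 and 1.49 and 1.65 for Aldh1l1.

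Aldoc, a glycolytic aldolase used as an astrocyte marker, made most of that sum with DMSO and fell at 48 h. It had 17 and 28 reads with DMSO and 3 and 3 with MHY, a ratio of 0.134 per read sequenced (exact counting interval 0.0469 to 0.316), and the log2 difference was -2.87 (SE 0.74, limma voom adjusted p = 0.0117). Without MHY library 24 or MHY library 25 the adjusted p was 0.622 or 0.0972, and with the 48 h libraries fitted alone it was 0.156.

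Of 7 neural progenitor genes, 6 had reads and none reached the minimum for a test, with a sum of 0 to 3.16 with DMSO and 2.80 to 4.17 with MHY per 100000 at 48 h. Nes gave most of these reads, with 0 and 8 with DMSO and 11 and 3 with MHY. Of 6 neuronal genes, 4 had reads, 2 were tested and none was called; their sum was 28.7 to 32.8 with DMSO and 21.5 to 24.7 with MHY. The lower sum came from Stmn2, with a log2 difference of -0.67 (SE 0.22, limma voom adjusted p = 0.0850, and 0.0194 with scaling by the upper quartile). Tubb3, the other gene tested, was at 0.53 (SE 0.45, limma voom adjusted p = 0.670), and Dcx and Rbfox3 had no reads.

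Among pluripotency genes, 8 of 12 were tested and 1 was called. Tdgf1, a co-receptor for Nodal, fell at 48 h, from 61 and 105 reads with DMSO to 46 and 43 with MHY (log2 -1.0, SE 0.21, limma voom adjusted p = 0.000678). Without MHY library 24 its adjusted p was 0.569 and without DMSO library 25 it was 0.157. Pou5f1, the central pluripotency factor, had a log2 difference of -0.19 (SE 0.11) and was not called.

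Among 4 mesoderm genes, all had reads and 2 were tested. T (brachyury) was called lower at 48 h, with 15 and 73 reads with DMSO and 10 and 40 with MHY (log2 -1.19, SE 0.30, limma voom adjusted p = 0.00890). Its replicates were far apart, with more reads in library 25 than in library 24 in both groups, and the groups overlapped. The adjusted p was 0.948 without DMSO library 25, and without MHY library 24 the log2 value was 0.34 (adjusted p = 0.894). With limma's trend method the adjusted p was 0.650. At 24 h none of the listed genes was called, and 0 of those tested had an unadjusted p under 0.05.

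**Figure D5:**
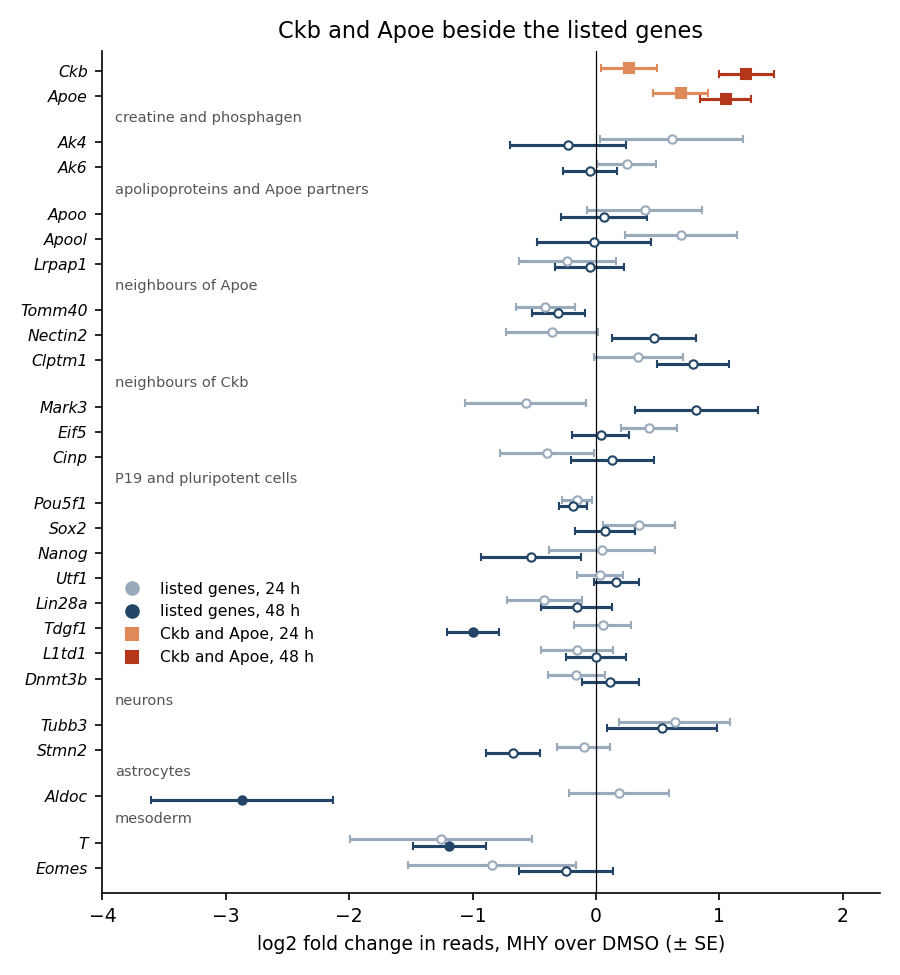
Fitted log2 differences in reads (MHY over DMSO, x axis, with SE bars) for Ckb and Apoe (squares) and for listed genes with enough reads for a test (circles), in lighter colours at 24 h and darker colours at 48 h; filled circles passed the test. Tdgf1 (-1.0), T (-1.19) and Aldoc (-2.87) are the filled circles, all at 48 h.

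The genes whose reads varied most like those of Ckb over the 8 libraries were Dstn, Ube2d2a, Ftl1-ps1, Apoe and Eif6, with Pearson r of 0.92, 0.90, 0.90, 0.85 and 0.78 on log2 scaled reads, among 681 genes with 50 or more reads per library on average. Dstn is destrin, which severs actin filaments, and Ube2d2a is a ubiquitin-conjugating enzyme. Dstn went from 17.3 and 19.6 reads per 100000 with DMSO to 27.3 and 32.2 with MHY at 48 h.

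Those most like Apoe were Ftl1, Eif6, Ftl1-ps1, Sqstm1 and Tmsb4x, with r of 0.92, 0.90, 0.89, 0.87 and 0.86. Ckb came 7th. Ftl1 went from 192.1 and 197.3 to 282.3 and 306.1 reads per 100000 at 24 h and from 180.7 and 191.8 to 258.8 and 321.9 at 48 h. Sqstm1, the autophagy receptor p62, went from 16.1 and 19.2 to 28.5 and 35.3 at 48 h. Tmsb4x encodes thymosin beta 4, which binds actin monomers. Reads of Ftl1 and Ftl1-ps1, which are close copies, may be split between them. These values share their libraries and the 48 h contrast that chose both genes, so they describe likeness in these 8 libraries and no more.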

How the data were processed

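Reads were counted from a deposited table with 1 alignment per line, 2439710 in all. To make it the authors used Guppy for base calls, minimap2 2.20 for alignment to GENCODE vM17 transcripts (mm10), Nanopolish for tail lengths in nt and Deeplexicon for barcodes. The deposited mapping quality is a score, and the deposited barcode confidence a fraction from 0 to 1. The deposited positions and tail lengths are in nt, not normalized.

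PASS alignments of mRNA were kept once per read and transcript, without 66955 mitochondrial and 12169 pseudogene alignments, which left 1925443 reads. The table's condition column gave each library its group, matched to the sample labels. It names 48 h but no other time, and conditions without a time were taken as 24 h. The 2 libraries of a group were not tied to its 2 samples one by one. Genes with 10 or more reads in at least 2 libraries were fitted with limma 3.58.1 (R 4.3.3) voom, with median-of-ratios size factors and the 8 libraries in 1 fit. voom drew every gene's spread to the common trend, so read p-values hardly use a gene's own replicate spread. Tail shares (after adding 0.5 read), median tails and isoform shares were fitted with limma, weighted by reads, for genes with 10 or more reads in every library. Calls were Benjamini-Hochberg adjusted p under 0.05 within 1 contrast. Scripts were tested on simulated data.

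Alternatives covered scaling, filters, weights, class bounds, mapping quality, barcode confidence, runs and omitted libraries. Listed genes are named if called or among the 3 of their list with most reads, and other listed genes were named after their values were seen. The 5 genes most alike were named for each gene. Ckb, Apoe and the lists were chosen with earlier results of these data known. A few listed genes enter the counts, sums and medians of their lists but are not reported here by name.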

Additional observations from a re-analysis of the deposited data

How the results depend on the processing

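No alternative moved the 24 h reads of Apoe (log2 0.47 to 0.92) across the threshold, nor the shares of tails under 30 nt and of 30 to 90 nt and the median tails of Ckb and Apoe, nor the shares of Ckb-201, Apoe-206 and Apoe-209 (the exact test of start shares cannot reach 0.05 with 2 libraries a group). The 48 h reads stayed higher with MHY in every alternative run. Omitting 1 library of 48 h at a time gave 1.02 to 1.49 for Ckb and 0.91 to 1.16 for Apoe. Reads from the commonest start alone (chosen after seeing the data) gave 1.58 and 1.57, and for Apoe mapping quality of at least 10 gave 1.21 and the second 48 h run alone 1.23. At 24 h Ckb was -0.20 in the third run.

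Several values that had not passed a test changed sign. For tails of Ckb under 30 nt, a bound of 20 nt gave 0.030 at 24 h and -0.28 at 48 h, and omitting a library gave -1.68 to 0.95 and -0.13 to 2.50. For tails of 30 to 90 nt, mapping quality of at least 10 gave -0.14 and no weights -0.037 at 48 h, and omitting a library gave -0.92 to 0.24 at 24 h and -0.48 to 0.32 at 48 h. Its median tail difference ran from -0.0034 to 12.4 nt and from -16.4 to 5.29 nt, and the log2 odds of Ckb-201 from -1.23 to 0.82 and from -0.43 to 1.23. For Apoe, tails under 30 nt gave -0.11 with mapping quality of at least 10 and -0.41 with barcode confidence of at least 0.9 at 24 h, and -1.70 to 1.27 without 1 library at 48 h. Its tails of 30 to 90 nt gave 0.38 with bounds of 40 to 80 nt. The share of reads starting in the first 100 nt ran from -16.8 to 3.28 points for Ckb at 24 h and from -3.40 to 6.40 points for Apoe at 48 h without 1 library. In other windows at 24 h, the difference was 7.91 points for Ckb in the first 50 nt and 4.28 points for Apoe within 30 nt of the commonest start.

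The 3 calls among listed genes became 0 to 3 without 1 library: 0 without MHY library 24 and 1 without DMSO library 25. With the upper quartile 4 were called, Stmn2 among them. T ran from -2.23 to 0.34, Ak6 from -0.26 to 0.11, Eif5 from -0.14 to 0.17 and Lrpap1 from -0.14 to 0.074. Ak6 was 0.021 with barcode confidence of at least 0.9 and 0.069 with total reads. Lrpap1 was 0.065 with total reads. Eif5 was -0.089 with mapping quality of at least 10, -0.013 with barcode confidence of at least 0.9 and -0.057 with the upper quartile. The cause of these changes was not tested.

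Over all genes, the 71 calls for reads at 48 h became 17 without MHY library 24, 18 without DMSO library 25, 145 without MHY library 25, 43 with barcode confidence of at least 0.9, 160 with the upper quartile, 147 without a filter and 29 with limma's trend method. The 2 calls at 24 h became 0 to 4. At 48 h all 3 tail measures had 0 calls without DMSO library 25, without MHY library 24 or without weights. Calls for tails of 30 to 90 nt and for median tails became 18 and 41 without DMSO library 24 and 36 and 39 without MHY library 25. Those for tails under 30 nt became 1 and 0. Over all alternatives calls ranged from 0 to 16 for tails under 30 nt, from 0 to 36 for tails of 30 to 90 nt, from 0 to 41 for median tails and from 0 to 2 for isoforms.

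With the replicate block, which takes the library number as a pair, Eif5 was -0.0018, T was -0.57 and lost its call (limma adjusted p = 0.559), and 2 listed genes were called at 48 h. No call on Ckb or Apoe changed. It called 92 genes for reads, 16 for tails under 30 nt and 8 for tails of 30 to 90 nt at 48 h, and 4 of the latter at 24 h. The labels do not say that a number pairs libraries, and deviations of same-numbered libraries correlated at 0.020 at 24 h and 0.14 at 48 h over 1949 genes.

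With 25 to 138 reads of a gene in a library, the tests could not tell a tail difference of the size of the intervals given from none. Voom p-values lean on the trend over genes. The 2 libraries per group allow no exact p below 0.33.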
